A study of Homo sapiens with 12 samples.

Results

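Exosomes of cisplatin-treated parental MDA-MB-231 cells were compared with exosomes of untreated parental cells, over every human miRNA that the deposited parental count table lists. These are 137 mature miRNAs, of 153 listed in either of the series' tables and 98 listed in both, and 6 of its 12 libraries. The treated group is 3 libraries of parental cells given 56 µM cisplatin for 48 h, and the untreated group is 3 libraries of parental cells given none. Both groups are the same established line, human breast adenocarcinoma MDA-MB-231, kept in serum depleted of exosomes, with no other treatment or genetic change named in the labels. The remaining 6 libraries, from sorted CSC-like cells of the line, are not compared here. The sample names speak of exosomes, while the extraction text speaks of RNA from cells taken with ExoRNeasy, a kit for vesicle RNA. Nothing in the labels says whether the replicates are separate cultures, so every p-value given here reflects the spread among libraries, and that spread may be technical.

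Exosomes are small vesicles of endosomal origin that cells release and that carry proteins and RNA, miRNAs among them. A miRNA is cut from a hairpin precursor, loaded into an Argonaute protein and guides it to messenger RNAs, which it recognises mainly through its seed, bases 2 to 8 from its 5′ end. miRNAs that share a seed can recognise many of the same messages and are grouped as a family. Cisplatin, a platinum compound used against many tumours, forms crosslinks in DNA. MDA-MB-231 is a mesenchymal-like line that lacks the oestrogen and progesterone receptors and HER2 amplification.

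Of the listed miRNAs, 120 had an entry with the same name in the RefSeq miRNA table (GRCh38). The mature sequences of the miRNAs that the comparison turns on are shown first, with the seed in capitals, written 5′ to 3′. The first set holds miRNAs with higher shares of counts in every treated library than in any untreated one. miR-30b-5p is also of this kind but was not among the matched miRNAs, so its sequence is not shown.
miR-7-5p: uGGAAGACuagugauuuuguuguu
miR-22-3p: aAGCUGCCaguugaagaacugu
miR-21-5p: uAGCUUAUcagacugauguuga
miR-378a-3p: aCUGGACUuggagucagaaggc

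No 2 of these share a seed. The RefSeq table places miR-7-5p at chr9:83969811-83969834 on the minus strand, in an exon of an HNRNPK transcript, and at chr19:4770700-4770723 on the plus strand, in an intron of MIR7-3HG. Other loci of miR-7-5p, if any, were not searched for outside that table. Counts of the hairpins that give the same mature sequence cannot be told apart. miR-22-3p lies at chr17:1713914-1713935 on the minus strand, in an exon of the long non-coding gene MIR22HG. miR-21-5p lies at chr17:59841273-59841294 on the plus strand, in an exon of a VMP1 transcript. miR-378a-3p lies at chr5:149732867-149732888 on the plus strand, in an intron of PPARGC1B. The overlapping genes are those of GENCODE, on the same build. A place is called an exon, here and below, where any annotated transcript of the gene has an exon there.

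The second set holds miRNAs with lower fitted values after cisplatin, beside a listed miRNA with the same seed where there is one. miR-100-5p and miR-99b-5p share the seed ACCCGUA, and miR-25-3p and miR-92a-3p share AUUGCAC.
miR-100-5p: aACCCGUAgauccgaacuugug
miR-99b-5p: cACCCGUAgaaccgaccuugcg
miR-25-3p: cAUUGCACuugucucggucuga
miR-92a-3p: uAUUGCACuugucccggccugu
miR-7704: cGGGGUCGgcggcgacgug

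miR-100-5p lies at chr11:122152275-122152296 on the minus strand, in an intron of MIR100HG. miR-25-3p lies at chr7:100093571-100093592 on the minus strand, in an intron of MCM7, a gene of the replicative helicase. miR-7704 lies at chr2:176188843-176188861 on the plus strand, in an exon of HOXD1 and opposite an exon of HAGLR.

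The third set holds the 5 let-7 members that were counted often enough to test. They share their seed and differ from each other at 1 to 4 bases outside it, and their shares of counts did not follow 1 order across the libraries.
let-7a-5p: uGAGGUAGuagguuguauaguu
let-7b-5p: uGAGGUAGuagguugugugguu
let-7f-5p: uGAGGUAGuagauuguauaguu
let-7g-5p: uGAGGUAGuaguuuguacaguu
let-7i-5p: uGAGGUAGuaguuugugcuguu

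Values are whole read counts per mature miRNA, as deposited. A share is a miRNA's percent of all listed counts of its library. Treated libraries held 6622, 3552 and 3924 listed counts, and untreated ones 3527, 2648 and 4005. A miRNA with no count in a library can still have a share of 0.0453% there in the deepest library, or 0.113% in the shallowest (3 counts of the total). Both groups hold at least 1 count of every listed miRNA, 58 have a count in all 6 libraries, and 84 have at most 9 counts in every library. A miRNA counted in only 1 group may thus have been left out, and a miRNA that is not listed is not shown to be absent. Intervals and limits cover counting error only, since nothing in the labels names molecular identifiers. Shares of a library sum to 100%, so a share gives no amount per vesicle or per cell, and fewer vesicles that carry a miRNA cannot be told apart from less of it per vesicle.

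The number of listed miRNAs seen in a library overlapped between the groups. A count was present for 102, 111 and 112 miRNAs in treated libraries, against 105, 94 and 102 in untreated ones. At an equal depth of 2648 counts, 96.5 ± 10.7 miRNAs were expected in a treated library and 94.1 ± 2.36 in an untreated one (SD, n = 3 each). The 10 most abundant miRNAs of each library took 80.5, 78.8 and 80.4% of its counts in treated libraries, against 83.9, 83.2 and 80.4% in untreated ones. The effective number of miRNAs (the exponential of the Shannon entropy of the shares) was 14.8, 15.9 and 15.02 in treated libraries, against 9.71, 14.5 and 12.7 in untreated ones. These values did not overlap between the groups, with the lowest in untreated replicate 1, where miR-100-5p alone made up 51.1% of counts (exact 95% interval 49.4 to 52.8).

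The untreated libraries lay farther apart than the treated ones. By the Bray-Curtis dissimilarity of shares, which runs from 0 for libraries with the same composition to 100% for libraries with no miRNA in common, treated replicates 2 and 3 differed by 7.66%, and treated replicate 1 differed from them by 24.8 and 23.9%. Untreated replicates 1 and 3 differed by 26.3%, replicates 2 and 3 by 44.0% and replicates 1 and 2 by 57.8%. The mean was 18.8% over treated pairs, 42.7% over untreated pairs and 41.2% over the 9 pairs of a treated and an untreated library. Untreated replicate 2 stood at 31.3, 25.0 and 24.2% from the treated libraries, nearer to each of them than to either of the other untreated libraries. For treated replicate 1 this order was lost without miR-21-5p and miR-100-5p, when untreated replicate 2 stood at 52.1% from it and at 50.2% from untreated replicate 3. It was also lost by 1 minus Spearman's correlation over the tested miRNAs, at 0.447 and 0.430, and it held for treated replicates 2 and 3 on both scales.

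**Figure D1:**
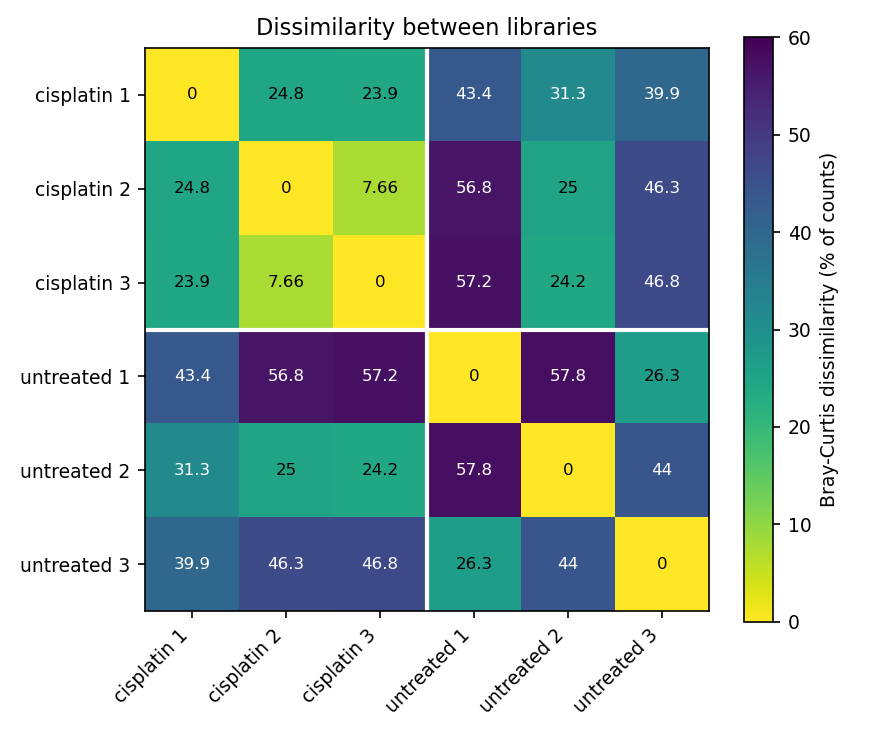
Bray-Curtis dissimilarity of miRNA shares (percent of counts) between each pair of the 6 parental libraries, with treated libraries above and left of untreated ones. Treated replicates 2 and 3 are the closest pair at 7.66%, and untreated replicate 2 lies closer to treated replicates 2 and 3 (25.0 and 24.2%) than to untreated replicates 1 and 3 (57.8 and 44.0%).

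Markers of the line were checked first. miR-21-5p, miR-100-5p, miR-146a-5p, miR-221-3p and miR-222-3p are all known from MDA-MB-231. Together they took 52.0, 56.5 and 55.9% of counts in treated libraries, against 60.5, 53.5 and 56.5% in untreated ones. Most of this was miR-21-5p and miR-100-5p. miR-222-3p was scarce, with 3, 2 and 8 counts in treated libraries, against 1, 4 and 6 in untreated ones. The epithelial miR-200 family and miR-205-5p had 2 of 6 members listed, at 0.163% ± 0.0896 of counts in treated and 0.0889% ± 0.0774 in untreated exosomes (SD, n = 3 each). Of these, miR-200b-3p had 4, 7 and 8 counts in treated libraries, against 4, 0 and 5 in untreated ones. miR-31-5p, low or absent in this line, was not listed. Of 9 blood cell and serum miRNAs, 2 were listed, miR-486-5p and miR-126-3p, with a summed share of 0 to 0.282% in treated and 0 to 0.284% in untreated libraries. The liver miRNA miR-122-5p had 2, 3 and 3 counts in treated libraries, against 0, 0 and 6 in untreated ones. Of 9 muscle and neuron miRNAs, only miR-128-3p was listed, with 0, 1 and 1 counts in treated libraries, against 4, 0 and 0 in untreated ones.

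miR-21-5p and miR-100-5p had the highest mean shares over the 6 libraries and were the leading pair in each library except untreated replicate 1, where miR-4488 stood second at 11.1% (exact 95% interval 10.04 to 12.1). miR-21-5p, which represses PDCD4 and is abundant in many tumours, made up 28.6, 34.0 and 33.1% of counts in treated libraries, against 6.72, 22.1 and 8.74% in untreated ones. It was the most abundant miRNA of all 3 treated libraries and of untreated replicate 2. miR-100-5p, a repressor of the growth kinase mTOR, made up 21.6, 15.99 and 16.4% in treated libraries, against 51.1, 21.4 and 44.5% in untreated ones. It was the most abundant miRNA of untreated replicates 1 and 3, and its groups overlapped, since treated replicate 1 stood above untreated replicate 2.

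The pair took nearly the same share of counts in each treated library, at 50.2, 50 and 49.5%, against 57.8, 43.5 and 53.3% in untreated ones. The ratio of miR-21-5p to miR-100-5p was 1.32, 2.13 and 2.02 in treated libraries, against 0.132, 1.04 and 0.196 in untreated ones. The ratio did not overlap between the groups, and untreated replicate 2 was again the nearest to the treated libraries. Because each miRNA is a large part of the total that the other is divided by, each was also taken with its partner left out of the total. miR-21-5p then made up 36.4, 40.5 and 39.6% in treated libraries, against 13.7, 28.1 and 15.8% in untreated ones, still without overlap. miR-100-5p then made up 30.2, 24.2 and 24.5% in treated libraries, against 54.8, 27.4 and 48.8% in untreated ones, still with overlap.

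**Figure D2:**
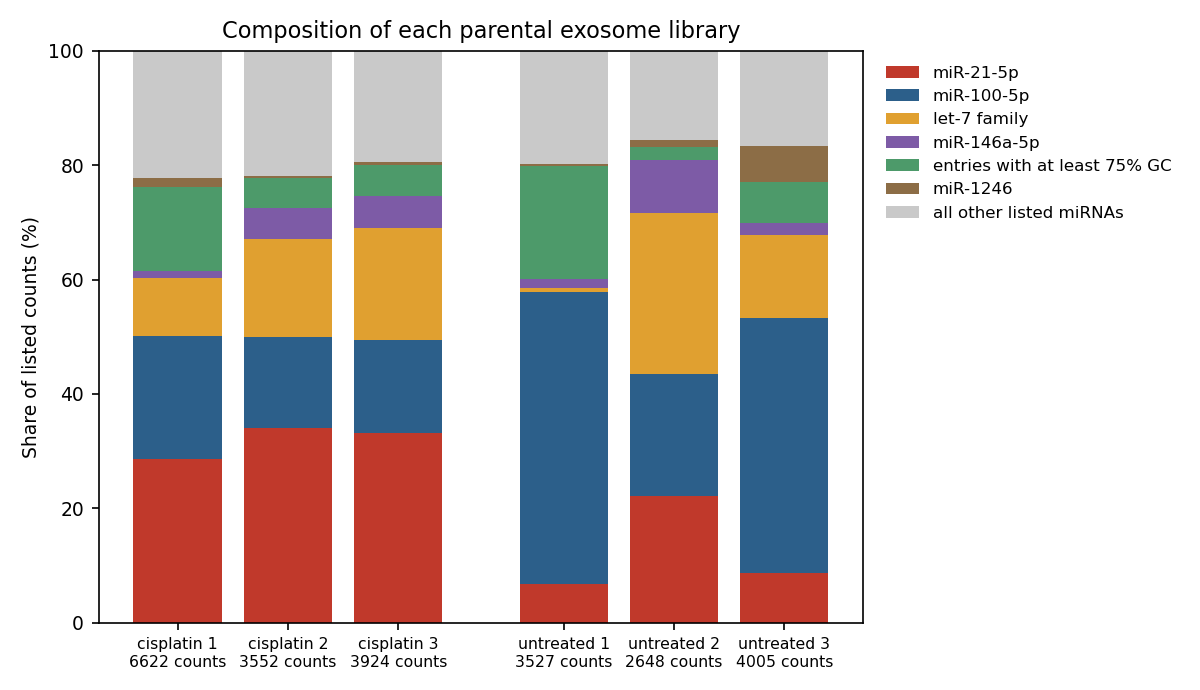
Share of listed counts (percent) in each of the 6 libraries, treated left and untreated right, split into miR-21-5p, miR-100-5p, the let-7 family, miR-146a-5p, entries with at least 75% GC, miR-1246 and all other listed miRNAs. miR-21-5p is larger than miR-100-5p in the treated libraries and in untreated replicate 2 and smaller in untreated replicates 1 and 3, and the let-7 family is 0.766% of untreated replicate 1 against 28.1% of untreated replicate 2.

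Counts were tested with edgeR's quasi-likelihood test on the 37 miRNAs that passed its count filter, with p-values adjusted over them by the Benjamini-Hochberg method and a threshold of 0.05. The filter asked for about 0.268% of counts in at least 3 libraries, and 16 miRNAs met it in the 3 treated libraries without meeting it in all 3 untreated ones, against 2 the other way round. The other 100 listed miRNAs were not tested. Of those tested, 2 were called (5.41%), both higher after cisplatin, and none was called lower (0 of 37). At an unadjusted p under 0.05 there were 2 higher (5.41%) and 4 lower (10.8%). DESeq2's Wald test on the same 37 called 2 higher and 2 lower. The median of the 37 log2 fold changes was −0.27 with TMM scaling and 0.015 with library totals, and the fold changes below are to be read against the TMM value.

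In exosomes of cisplatin-treated cells both miR-7-5p and miR-30b-5p rose by the test with all 6 libraries, a call that was lost with no count filter or without untreated replicate 1 or 3. miR-30b-5p belongs to the miR-30 family, known for restraining the transition from epithelial to mesenchymal state. It was counted 19, 21 and 21 times in treated libraries, against 1, 1 and 3 times in untreated ones. miR-7-5p represses the EGF receptor. It was counted 22, 21 and 20 times in treated libraries, against 1, 2 and 3 times in untreated ones. Neither overlapped between the groups, and neither varied much by count among the treated libraries, although treated replicate 1 is the deepest library, so that their shares there were the lowest of the treated group, at 0.287% for miR-30b-5p and 0.332% for miR-7-5p.

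The log2 fold change of miR-30b-5p was 2.97 (SE 0.64, edgeR adjusted p = 0.00336). That of miR-7-5p was 2.69 (SE 0.62, edgeR adjusted p = 0.00386). Both passed the count filter through the treated group alone, so they could be tested only because they were high there. Neither was called without untreated replicate 1 (adjusted p = 0.139 for both), without untreated replicate 3 (0.0698 for miR-30b-5p and 0.0726 for miR-7-5p) or with no count filter (0.0826 for both). Their fold changes stayed between 2.73 and 3.43 for miR-30b-5p and between 2.39 and 2.94 for miR-7-5p over the 14 alternatives run, and each was called in 11 of them.

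miR-22-3p had a similar pattern of counts but fell short of the filter. It represses oestrogen receptor alpha and has been described as restraining breast tumour growth. It was counted 12, 21 and 17 times in treated libraries, against 1, 1 and 2 times in untreated ones, or 0.402% ± 0.207 against 0.0387% ± 0.0108 of counts (SD, n = 3 each). With a filter of at least 15 counts over the 6 libraries, which does not look at the groups, 72 miRNAs were tested and 3 were called (4.17%). miR-22-3p was among them with a log2 fold change of 3.17 (SE 0.78, edgeR adjusted p = 0.00954). All 3 reached 15 counts only through the treated libraries where they are high. Their untreated counts sum to 4 for miR-22-3p, 5 for miR-30b-5p and 6 for miR-7-5p. With no filter the edgeR adjusted p of miR-22-3p was 0.0826.

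**Figure D3:**
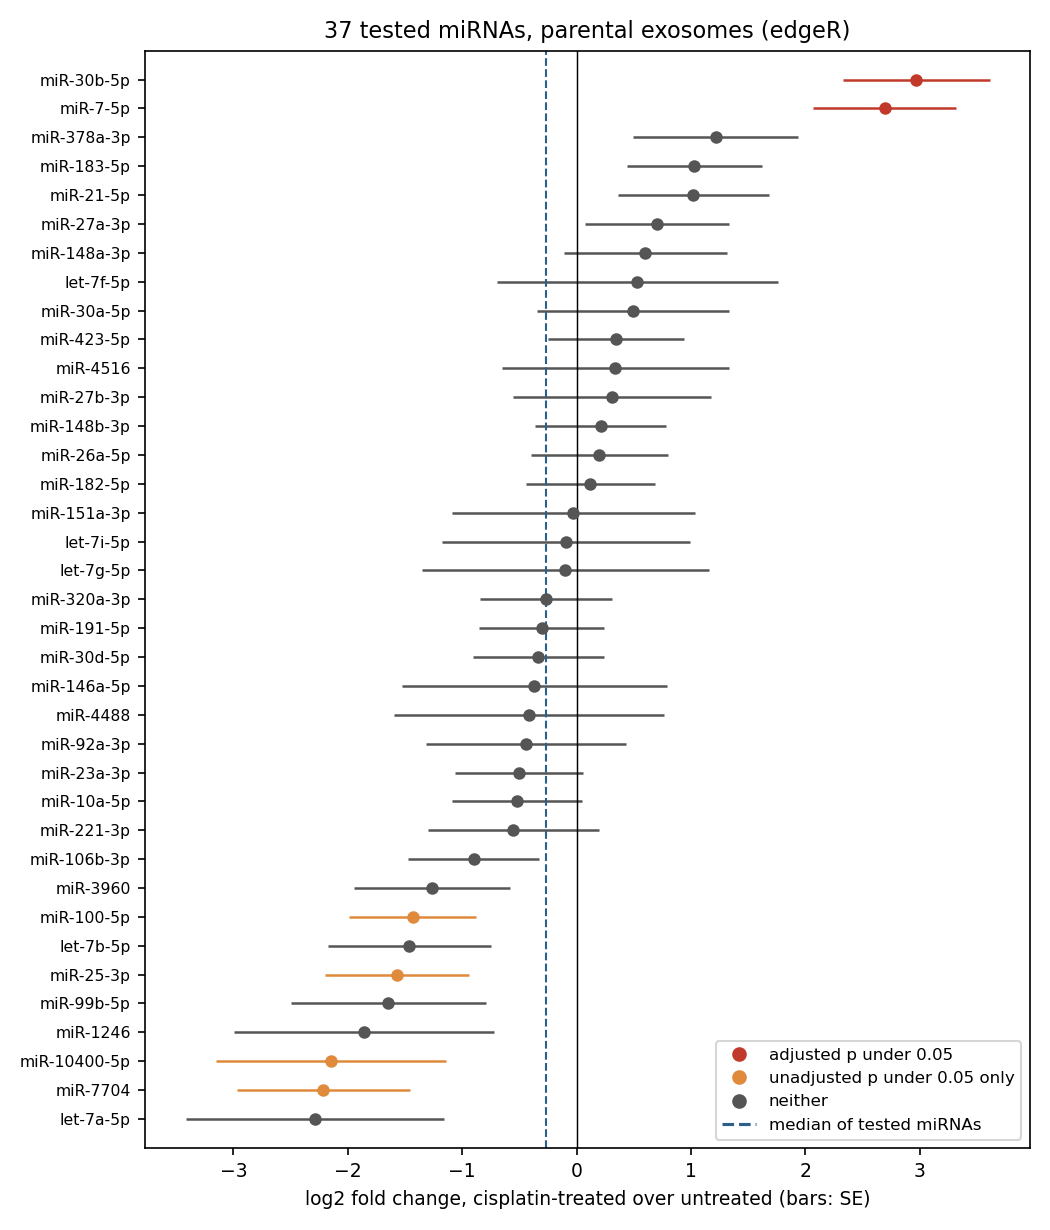
log2 fold change (cisplatin-treated over untreated) of the 37 tested miRNAs with bars for the standard error, sorted, coloured by whether the adjusted or only the unadjusted edgeR p was under 0.05. miR-30b-5p (2.97) and miR-7-5p (2.69) stand apart at the top, 22 of the 37 lie below 0, and the dashed line marks the median of −0.27.

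Shares that did not overlap between the groups were mostly higher after cisplatin. Of the 37 tested miRNAs this held for 6 (16.2%), all higher in treated libraries. Of all 137 listed miRNAs it held for 13 (9.49%), 11 higher (8.03%) and 2 lower (1.46%). If the group labels were exchangeable among the libraries, shares would fail to overlap, in either direction, at a rate of about 0.1. Lack of overlap is therefore a description and not a test, here and for the sets and hairpins below. Besides miR-30b-5p, miR-7-5p and miR-21-5p, the tested miRNAs without overlap are miR-378a-3p, miR-148a-3p and miR-30a-5p. Of these 6, miR-30b-5p, miR-7-5p and miR-378a-3p met the count filter in all 3 treated libraries but not in all 3 untreated ones. The filter kept 16 miRNAs of that kind and 2 of the opposite kind, so the direction among tested miRNAs partly reflects the filter.

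miR-378a-3p, from an intron of the gene of the metabolic coactivator PGC-1β, was counted 69, 21 and 30 times in treated libraries, against 10, 13 and 1 times in untreated ones. By share this is 0.799% ± 0.227 against 0.266% ± 0.233 (SD, n = 3 each). The log2 fold change was 1.22 (SE 0.72, edgeR adjusted p = 0.324). miR-148a-3p, which targets DNA methyltransferases, was counted 98, 33 and 31 times in treated libraries, against 22, 17 and 15 times in untreated ones. Its share was 1.07% ± 0.365 against 0.547% ± 0.149 (SD, n = 3 each), and its log2 fold change 0.60 (SE 0.71, edgeR adjusted p = 0.790). For miR-30a-5p, which represses the autophagy gene BECN1, the counts were 127, 43 and 49 in treated libraries, against 20, 25 and 39 in untreated ones, with a log2 fold change of 0.49 (SE 0.84, edgeR adjusted p = 0.843). None of the 3 passed the test, and neither did miR-21-5p with a log2 fold change of 1.02 (SE 0.66, edgeR adjusted p = 0.333).

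The untested miRNAs without overlap were counted rarely. miR-30c-5p, another miR-30 family member, had 18, 9 and 14 counts in treated libraries, against 2, 3 and 6 in untreated ones. miR-101-3p, which represses the histone methyltransferase EZH2, had 10, 8 and 7 counts in treated libraries, against 1, 3 and 0 in untreated ones. miR-210-3p, a miRNA induced by hypoxia, had 3, 2 and 2 counts against 0, 1 and 0, and miR-140-3p had 4, 2 and 3 against 1, 0 and 0. In the other direction, miR-99a-5p had 2, 1 and 0 counts in treated libraries, against 7, 1 and 3 in untreated ones, and miR-374b-5p had 0, 1 and 1 against 1, 5 and 2. With 10 or fewer counts in any library for the last 5, these differences rest on few reads.

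**Figure D4:**
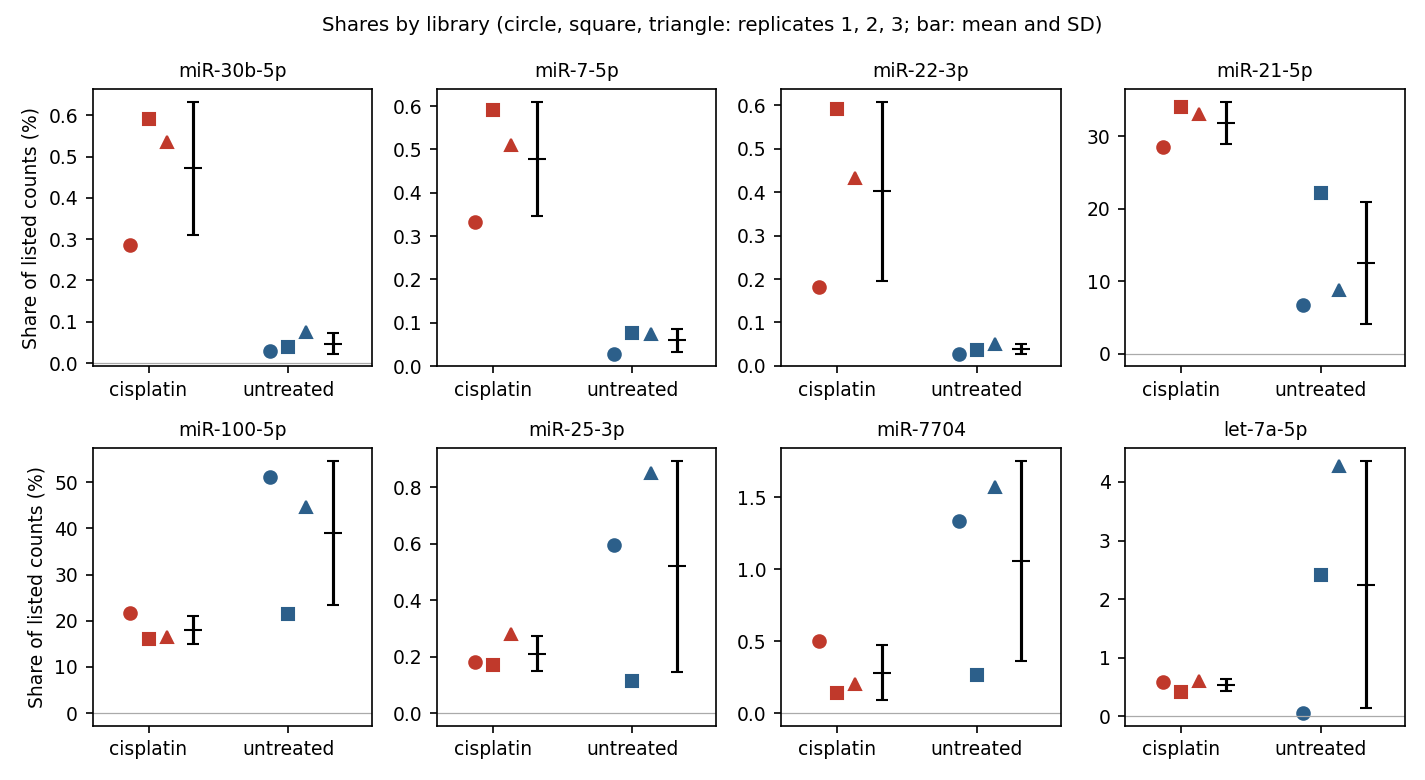
Share of listed counts (percent, separate scales) of 8 miRNAs in each library, treated left and untreated right, with the mean and SD (n = 3) beside each group. miR-21-5p, miR-22-3p, miR-7-5p and miR-30b-5p do not overlap between the groups, whereas for miR-100-5p, miR-25-3p and miR-7704 untreated replicate 2 (square) lies among or near the treated libraries, and for let-7a-5p untreated replicate 1 (circle) lies below them.

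Lower fitted values with an unadjusted p under 0.05 were found for 4 miRNAs, none of them called, and let-7a-5p, at −2.29, had the lowest fitted value of the 37 without passing that p. miR-7704 was counted 33, 5 and 8 times in treated libraries, against 47, 7 and 63 times in untreated ones, with a log2 fold change of −2.21 (SE 0.76, edgeR adjusted p = 0.0871). miR-25-3p, which represses the pro-apoptotic BIM, was counted 12, 6 and 11 times in treated libraries, against 21, 3 and 34 times in untreated ones (log2 fold change −1.57, SE 0.63, edgeR adjusted p = 0.139). miR-100-5p had a log2 fold change of −1.43 (SE 0.56, edgeR adjusted p = 0.139). miR-10400-5p was counted 46, 12 and 19 times in treated libraries, against 137, 8 and 40 times in untreated ones (log2 fold change −2.14, SE 1.00, edgeR adjusted p = 0.244), and without untreated replicate 1 its log2 fold change was −0.61.

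In each of these 4, untreated replicate 2 had the lowest share of its group. Without that library 4 miRNAs were called lower and 4 higher. The lower ones were miR-100-5p (log2 fold change −1.70, edgeR adjusted p = 1.25e-07), miR-7704 (−2.64, 0.00307), miR-25-3p (−2.01, 0.00686) and miR-99b-5p (−2.19, 0.0167). The higher ones were miR-30b-5p, miR-7-5p, miR-21-5p (1.81, 0.00013) and miR-378a-3p (2.03, 0.0234). With all 6 libraries, miR-100-5p (−1.37, adjusted p = 0.00472) and miR-7704 (−2.10, adjusted p = 0.0272) were also called lower by DESeq2. miR-99b-5p is the least settled of these, with 43, 10 and 8 counts in treated libraries, against 73, 1 and 25 in untreated ones, and a log2 fold change of −0.073 without untreated replicate 1.

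**Figure D5:**
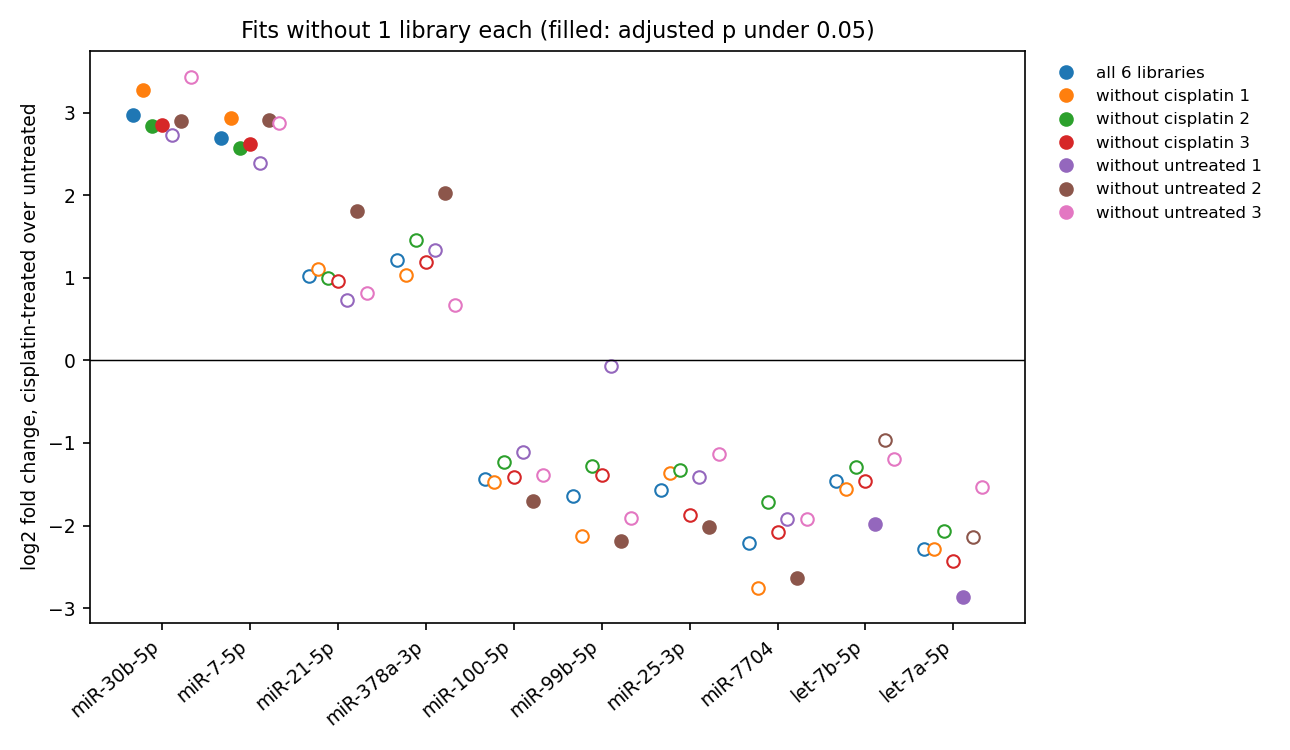
log2 fold change (cisplatin-treated over untreated) of 10 miRNAs with all 6 libraries and without each library in turn, filled where the edgeR adjusted p was under 0.05. miR-30b-5p and miR-7-5p keep values of 2.39 or more and lose the call without untreated replicate 1 or 3, while miR-378a-3p, miR-21-5p, miR-7704, miR-25-3p, miR-100-5p and miR-99b-5p are called without untreated replicate 2 and let-7a-5p and let-7b-5p without untreated replicate 1.

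The let-7 family represses RAS and HMGA2 and is known to increase with differentiation. All 9 family members were listed, 5 were tested, with 1 fitted value above and 4 below 0, and none was called. The values of let-7g-5p and let-7i-5p turned above 0 with library totals in place of TMM. Their median log2 fold change was −0.10, beside −0.27 over all tested miRNAs. The family took 10.2, 17.1 and 19.5% of counts in treated libraries, against 0.766, 28.1 and 14.6% in untreated ones. Untreated libraries thus lay both below and above all treated ones.

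let-7a-5p was counted 39, 15 and 24 times in treated libraries, against 2, 64 and 171 times in untreated ones. let-7b-5p was counted 26, 10 and 12 times in treated libraries, against 3, 29 and 42 times in untreated ones. let-7f-5p was counted 237, 154 and 245 times in treated libraries, against 2, 103 and 174 times in untreated ones. The balance of the last and the first of these was chosen for description after its values were seen. The ratio of let-7f-5p to let-7a-5p counts was 6.08, 10.3 and 10.2 in treated libraries, against 1, 1.61 and 1.02 in untreated ones. These ratios did not overlap, although untreated replicate 1 holds only 2 counts of each. The mature sequences of the pair, printed above, differ at 1 base, and how reads with a mismatch were assigned is not known here. let-7i-5p, the most abundant member, was counted 342, 293 and 369 times in treated libraries, against 15, 410 and 142 times in untreated ones. Its share in untreated replicate 1 was 0.425% (exact 95% interval 0.238 to 0.700), against 15.5% in untreated replicate 2 (14.1 to 16.9). let-7a-5p (log2 fold change −2.29, SE 1.13) and let-7b-5p (−1.46, SE 0.71) did not pass with all libraries (edgeR adjusted p = 0.244 for both). Without untreated replicate 1 both were called lower (−2.86, adjusted p = 0.0330, and −1.98, adjusted p = 0.0402), and those were then the only 2 calls.

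All 5 miR-30 family members were listed, and the summed share of the family was higher in every treated library. It was 2.99, 2.53 and 2.47% of counts in treated libraries, against 1.19, 1.40 and 1.75% in untreated ones, without overlap. Of 3 tested members 1 was called, miR-30b-5p, beside 5.41% of all tested miRNAs, and it passed the filter through the treated group alone. The median log2 fold change of the 3 was 0.49, beside −0.27 over all tested miRNAs. miR-30d-5p stood at 0.432% ± 0.0925 of counts in treated and 0.438% ± 0.183 in untreated exosomes (SD, n = 3 each; log2 fold change −0.33, SE 0.57). miR-30e-5p had 0, 1 and 0 counts in treated libraries, against 0, 2 and 0 in untreated ones.

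Grouped by seed, the 120 matched miRNAs held 92 different seeds, of which 15 were shared by at least 2 miRNAs, 43 in all. The summed share did not overlap for 2 of these 15 groups (13.3%), both higher after cisplatin. One is miR-30a-5p with miR-30c-5p and miR-30e-5p, at 1.76% ± 0.374 in treated and 0.960% ± 0.291 in untreated exosomes (SD, n = 3 each). This sum leaves out miR-30b-5p and miR-30d-5p, which belong to the same family but were not among the 120 matched miRNAs. The other is miR-148a-3p with miR-148b-3p and miR-152-3p, the miRNAs that target DNMT1, at 1.98, 1.41 and 1.15% in treated libraries, against 0.879, 1.13 and 0.524% in untreated ones. Within it miR-148b-3p had a log2 fold change of 0.21 (SE 0.58, edgeR adjusted p = 0.843). The group with seed ACCCGUA, miR-100-5p with miR-99a-5p and miR-99b-5p, made up 18.4% ± 3.36 in treated and 40.02% ± 16.6 in untreated exosomes (SD, n = 3 each), with overlap. Together with miR-125a-5p and miR-125b-5p, 5 of 5 listed, 2 tested and none called, it made up 18.5% ± 3.27 in treated and 40.2% ± 16.7 in untreated exosomes (SD, n = 3 each).

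Grouped by position, the 120 matched miRNAs formed 23 sets of 2 or more that lie within 10 kb of each other. Some sets are only the 2 arms of 1 hairpin under unlike names, such as miR-125b-1-3p with miR-125b-5p and miR-16-2-3p with miR-16-5p. Shares did not overlap for 1 set that was higher (4.35%) and for 3 that were lower (13%). The higher set is miR-30c-2-3p with miR-30c-5p on chromosome 6, which are also the 2 arms of 1 hairpin. It stood at 0.347, 0.253 and 0.357% of counts in treated libraries, against 0.0567, 0.113 and 0.175% in untreated ones. Most of it was miR-30c-5p, which has a further locus. miR-30c-2-3p had only 5, 0 and 0 counts in treated libraries, against 0, 0 and 1 in untreated ones. The lower set in MCM7 on chromosome 7, miR-106b-3p, miR-25-3p and miR-93-5p, took 0.574, 0.704 and 0.663% of counts in treated libraries, against 1.16, 1.02 and 1.15% in untreated ones. Its summed share varied little within either group, although each of the 3 miRNAs taken singly overlapped between them. In untreated replicate 2 the set was mostly miR-106b-3p, the arm opposite the better known guide, with 16 counts, where miR-25-3p had 3 and miR-93-5p had 8. The second lower set is let-7a-5p with miR-100-5p on chromosome 11, mostly miR-100-5p, and let-7a-5p has 2 further loci. The third is let-7c-5p with miR-99a-5p on chromosome 21, at 0.0604, 0.0282 and 0.0510% in treated libraries, against 0.198, 0.189 and 0.150% in untreated ones, which is at most 7 counts of either miRNA in a library.

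For 12 hairpins both arms were listed under names that differ only in 5p and 3p, 8 of them with at least 20 counts over the libraries. Arms named otherwise, such as miR-30c-2-3p beside miR-30c-5p, were not paired. The share of the 5p arm did not overlap between the groups for 1 of the 8 (12.5%), miR-423, which is described because of that value, and overlapped for the other 7. miR-423-5p was counted 50, 15 and 15 times in treated libraries, against 10, 3 and 24 times in untreated ones, and miR-423-3p 2, 3 and 1 times in treated libraries, against 13, 1 and 7 times in untreated ones. The 5p arm thus made up 96.2, 83.3 and 93.8% of the pair in treated libraries, against 43.5, 75 and 77.4% in untreated ones. These shares rest on between 4 and 52 counts in a library, and miR-423-5p itself was not called (log2 fold change 0.34, SE 0.59, edgeR adjusted p = 0.843). The passenger arm miR-21-3p had 2, 4 and 1 counts in treated libraries, against 0, 1 and 0 in untreated ones, beside 99.8% and 99.9% of miR-21 counts on the 5p arm over the treated and untreated groups.

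Among miRNAs known to act on DNA repair, few could be tested and none of those was called. Of 11 such miRNAs 6 were listed and 2 tested, and the list took 5.12% ± 2.53 of counts in treated and 4.91% ± 4.58 in untreated exosomes (SD, n = 3 each). miR-146a-5p, which represses IRAK1, TRAF6 and BRCA1, made up most of it, with 81, 190 and 221 counts in treated libraries, against 55, 247 and 78 in untreated ones (log2 fold change −0.37, SE 1.16). miR-182-5p, which represses BRCA1, was counted 46, 6 and 15 times in treated libraries, against 10, 9 and 11 times in untreated ones (log2 fold change 0.12, SE 0.57). miR-183-5p of the same cluster was counted 70, 11 and 17 times in treated libraries, against 6, 4 and 15 times in untreated ones (log2 fold change 1.03, SE 0.59, edgeR adjusted p = 0.316), and its highest value was in treated replicate 1. miR-24-3p, which represses the histone variant H2AX, was not tested, at 0.279% ± 0.172 in treated and 0.176% ± 0.0788 in untreated exosomes (SD, n = 3 each). The other untested members are miR-101-3p, higher without overlap as given above, and miR-16-5p and miR-138-5p, both with overlap.

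Few p53-responsive miRNAs were listed, which does not show that the others were scarce in either group. Of 7, including the miR-34 family, only miR-34c-5p and miR-192-5p were listed, neither was tested, and together they took 0.0641% ± 0.0683 of counts in treated and 0.0900% ± 0.0296 in untreated exosomes (SD, n = 3 each). MDA-MB-231 is known to carry a mutant p53, and any bearing of this on these shares was not tested. The miR-15/16 family (1 of 6 listed), the miR-29 family (1 of 3) and the miR-181 family (2 of 4) had no tested member. miR-29a-3p, which represses collagens and DNA methyltransferases, had 8, 13 and 19 counts in treated libraries, against 6, 5 and 2 in untreated ones.

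Among lists that bear on tumour growth, the miRNAs associated with growth and invasion in breast cancer had 5 of 9 listed, 2 tested and none called. Their share was 29.3, 35.3 and 33.9% in treated libraries, against 7.91, 22.8 and 10.1% in untreated ones, nearly all of it miR-21-5p. miR-221-3p, which represses the cell cycle inhibitor p27, made up 0.764% ± 0.315 in treated and 0.925% ± 0.376 in untreated exosomes (SD, n = 3 each; log2 fold change −0.55, SE 0.75). The miRNAs described as restraining growth and invasion had 5 of 10 listed and 2 tested. Of these 2, miR-7-5p was called higher, beside 5.41% of all tested miRNAs, and miR-146a-5p was not called. miR-7-5p passed the filter through the treated group alone. The untested listed members are miR-22-3p, miR-126-3p and miR-146b-5p. The share of the whole list was 5.13% ± 2.89 in treated and 4.55% ± 4.54 in untreated exosomes (SD, n = 3 each), with overlap.

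The clusters of miR-23, miR-27 and miR-24 had 5 of 5 members listed, 3 tested and none called, and the median log2 fold change was 0.31, beside −0.27 over all tested miRNAs. miR-27a-3p, which represses FOXO1, was the highest at 0.70 (SE 0.63, edgeR adjusted p = 0.630), with 0.503% ± 0.182 of counts in treated and 0.251% ± 0.182 in untreated exosomes (SD, n = 3 each). The miR-17-92 cluster and its paralogs had 6 of 12 listed and 2 tested, neither called, and miR-92a-3p had a log2 fold change of −0.44 (SE 0.87). Its seed partner miR-25-3p stood at −1.57, and the difference between them was not tested. The miR-10 family, from the HOX clusters, had both members listed, none called, and miR-10a-5p, the tested one, made up 0.393% ± 0.0151 in treated and 0.464% ± 0.205 in untreated exosomes (SD, n = 3 each).

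Several other tested miRNAs had fold changes close to 0. miR-191-5p stood at 0.335% ± 0.0765 in treated and 0.334% ± 0.1003 in untreated exosomes (SD, n = 3 each; log2 fold change −0.30, SE 0.55). miR-320a-3p stood at 0.434% ± 0.118 in treated and 0.436% ± 0.213 in untreated exosomes (SD, n = 3 each; log2 fold change −0.27, SE 0.58). miR-26a-5p, which represses EZH2, stood at 0.487% ± 0.199 in treated and 0.349% ± 0.125 in untreated exosomes (SD, n = 3 each; log2 fold change 0.20, SE 0.60). miR-151a-3p, 1 of the 10 most abundant miRNAs, was counted 273, 48 and 48 times in treated libraries, against 80, 27 and 79 times in untreated ones, and its log2 fold change of −0.03 (SE 1.06) turned sign under each of the other scalings. These standard errors leave room for a difference in either direction.

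Entries rich in G and C varied between libraries within both groups. By the sequences in the deposited table, 9 listed miRNAs have at least 75% GC, and they took 14.5, 5.35 and 5.35% of counts in treated libraries, against 19.7, 2.30 and 7.32% in untreated ones. The highest value of each group was in its replicate 1. miR-4488 had 657, 95 and 88 counts in treated libraries, against 390, 9 and 132 in untreated ones, and miR-4516 had 167, 53 and 77 against 65, 20 and 45. Of the 5 tested, 4 had lower and 1 had higher fitted values, none was called, and the value of miR-4488 turned from −0.42 to 0.015 with library totals. The mean GC content over all counts was 49.8, 44.3 and 44.0% in treated libraries, against 56.9, 43.6 and 48.9% in untreated ones. It was low in untreated replicate 2, where miR-7704, miR-10400-5p and miR-4488 were also low, and the part of GC content in their differences was not tested. miR-1246, whose sequence overlaps U2 small nuclear RNA, was counted 111, 10 and 22 times in treated libraries, against 13, 29 and 247 times in untreated ones (log2 fold change −1.86, SE 1.14, edgeR adjusted p = 0.324). Without untreated replicate 3, which holds most of the untreated counts, its log2 fold change was −0.25. Of 13 entries known to overlap other structured RNAs, 4 were listed and miR-1246 alone was tested, and they took 1.07% ± 0.829 of counts in treated and 2.80% ± 3.17 in untreated exosomes (SD, n = 3 each), or 0.992% in untreated exosomes without replicate 3.

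Short motifs that RNA-binding proteins read during loading of miRNAs into exosomes were searched as exact letters on the mature strand. GGAG, a motif bound by hnRNPA2B1, was in 15 of the matched listed miRNAs (12.5%), beside 15.7% of 2370 RefSeq mature miRNAs. GGCU, a motif bound by SYNCRIP, was in 23 (19.2%), beside 12.6%. The third motif searched, CCCU, was in 8 (6.67%), beside 11.9%. The miRNAs with GGAG took 5.96, 3.10 and 3.84% of matched counts in treated libraries, against 3.03, 2.99 and 8.24% in untreated ones. The miRNAs with GGCU took 13.4, 7.53 and 6.32% of matched counts in treated libraries, against 14.8, 4.62 and 5.54% in untreated ones. Among them is the GC-rich miR-4488, alone at 9.92, 2.67 and 2.24% of listed counts in treated libraries, against 11.1, 0.340 and 3.30% in untreated ones. Of the sequences printed above, miR-378a-3p holds GGAG and none holds GGCU.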

How the data were processed

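Small RNA libraries were made with NEB-Next multiplex small RNA protocols, per the labels' protocols. The values are read counts for each mature miRNA in each replicate as the authors deposited them, neither transformed nor normalized per the file headers. Tools named in the submitters' processing notes are cutadapt and FastQC. Not given in the sources used here: the aligner, its mismatch setting and the miRNA release. The authors' deposited fold and p-value columns were not used. A line of each table was not analysed here.

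Columns were matched to samples by title. Libraries of a group were set against each other in pairs by chi-square, using miRNAs with 10 or more counts. Chi-square per degree of freedom was 1.48 for treated replicates 2 and 3 and 16.1 to 51.2 for the other pairs, and all 6 libraries were kept. Counts of the 6 libraries were fitted together in R 4.3.3 with limma 3.58.1 and edgeR 4.0.16, using filterByExpr (minimum count 10, minimum total 15), TMM and glmQLFTest. The fit was also run on counts simulated from the pooled means and fitted dispersion of these libraries, with no result given here. Standard errors come from the fold change and the F statistic. DESeq2 1.42.0 served as an alternative. Leave-outs kept the same 37 miRNAs. Groups of miRNAs are described by counts, medians and shares, with no test.

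The miRNAs and lists were chosen with earlier results of these data known. Named miRNAs are those called in any of the fits reported and those with an unadjusted p under 0.05 or without overlap between groups. The 10 most abundant, list members and hairpins with both arms listed under matching names are also named.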

Additional observations from a re-analysis of the deposited data

How the results depend on the processing

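The count of miRNAs called higher, 2, was 0 with no filter on low counts (7 of 137 had an unadjusted p under 0.05) and ranged from 0 to 4 when 1 library was left out. The count called lower, 0, was 2 with DESeq2's Wald test and ranged from 0 to 4 when 1 library was left out. With the replicate number as a block, 2 were called higher and 0 lower, the same miRNAs as without it. Same-numbered treated and untreated libraries deviated together with r = 0.41, 0.44 and −0.01, so the numbers were not taken as pairs, and not every library correlated best with its own number. Counting treated replicates 2 and 3 as 1 sample, and taking miR-21-5p and miR-100-5p out of the table, both chosen after seeing the data, left the 2 calls in place. Of 419 recomputed fold changes of named miRNAs, 371 kept direction and side of the threshold, 31 turned sign, 10 gained and 7 lost a call, and none of those that turned sign was called. The cause was not tested. With library totals the log2 fold change turned to 0.18 for let-7g-5p, 0.23 for let-7i-5p, 0.015 for miR-4488 and 0.35 for miR-151a-3p. With no filter it turned to 0.056 for let-7g-5p, 0.17 for let-7i-5p and 0.22 for miR-151a-3p, and with at least 15 counts to 0.18, 0.29 and 0.33. With the replicate block it turned to 0.64 for let-7g-5p, 1.07 for let-7i-5p and 0.29 for miR-4488. miR-151a-3p also turned to 0.089 with DESeq2 size factors, to 0.090 with the Wald test and to 0.071 without miR-21-5p and miR-100-5p. With treated replicates 2 and 3 as 1 sample it turned to 0.43, and miR-4488 to 0.13. Leaving out 1 library gave ranges of −0.044 to 0.99 for let-7f-5p, −0.36 to 0.62 for miR-182-5p, −0.87 to 0.59 for miR-92a-3p, −0.70 to 1.96 for let-7g-5p, −0.65 to 1.81 for let-7i-5p, −0.76 to 1.02 for miR-146a-5p, −1.22 to 1.19 for miR-4488 and −0.66 to 0.41 for miR-151a-3p. The mean dissimilarity of treated pairs, 18.8%, was 30.1% without miR-21-5p and miR-100-5p and 7.66 to 24.8% without 1 library, and that of untreated pairs, 42.7%, was 26.3 to 57.8% without 1 library. As 1 minus Spearman's correlation over the tested miRNAs it was 0.285 for treated, 0.615 for untreated and 0.524 for mixed pairs. At 1000 counts 73.0 miRNAs were expected in treated and 69.1 in untreated libraries. The untreated share of the structured RNA list, 2.80%, ranged from 0.992 to 3.94% without 1 library. Depth limits what could be tested: 100 of 137 miRNAs fell below the filter, and standard errors of log2 fold changes ran from 0.55 to 1.25.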
